A study of Mus musculus with 1 sample.

Results

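The clustered histone genes are the tandem gene families that encode the core histones H2A, H2B, H3 and H4 and the linker histone H1. Members were taken as every row of the expression table whose gene symbol opens with Hist1h, Hist2h, Hist3h or Hist4h, which gave 68 of 23282 rows. By family they were 6 H1, 18 H2A, 19 H2B, 12 H3 and 13 H4 genes, and by cluster 54 Hist1, 10 Hist2, 3 Hist3 genes and 1 Hist4 gene. The data came from 1 RNA-seq library of primary mixed glia, grown from the ventral midbrain (VM) of ICR(CD-1) outbred mice at postnatal day 5, and the library was the control of a study on inhibition of the kinase SGK1. The control received the vehicle DMSO. Whether pups were pooled for the culture is not given in the sources used here. Cultures given the inhibitor are not analysed here. Values are the authors' normalised read counts, and with no replicate library no value below has an error and no difference between genes was tested.

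Most genes of these clusters are transcribed in S phase, when new DNA is packed into nucleosomes. Their messages are short, usually have no intron, and end after a conserved stem-loop in place of a poly(A) tail. The stem-loop binding protein SLBP and the U7 small nuclear ribonucleoprotein direct the cut behind it. Many H2A and H2B genes lie head to head and share the sequence between their starts. Replication-independent variants such as H3f3a and H2afz lie outside the clusters and carry a poly(A) tail.

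The stem-loop was found in the annotated exons of 46 of the 68 members (GENCODE release on GRCm38), against 0.144% of 55450 annotated genes. It occurred in 8 forms. The form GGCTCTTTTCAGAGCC was held by 26 members from the H1, H2A, H2B and H3 families, and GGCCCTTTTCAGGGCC by 7 members, all of them H4 genes. The sequences below show the stem-loop in capitals with up to 6 bases on each side, for the H2A and H1 genes with the highest values in their families, an H2A gene with its own form, 2 H4 genes and an H3 gene with a form of its own.
Hist2h2aa1: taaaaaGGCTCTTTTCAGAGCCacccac
Hist2h2ac: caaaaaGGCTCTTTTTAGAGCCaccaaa
Hist1h1c: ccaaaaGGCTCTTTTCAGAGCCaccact
Hist1h4h: accaaaGGCCCTTTTCAGGGCCgcccac
Hist1h4i: cttaaaGGCCCTTTTTAGGGCCaccaca
Hist1h3g: tttaaaGGCTCTTCTTAGAGCCacccat
No match was found in 22 members, of which 12 were annotated as the coding sequence alone, so that their ends lie outside the searched sequence.

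Promoter sequence was available for 62 members in RefSeq (GRCm38.p6), and 4 upstream windows of 250 bases are shown because they belong to the members with the highest values or mark a family. They belong to Hist2h2aa1, to the intervals between Hist2h2ac and Hist2h2be and between Hist1h2ac and Hist1h2bc, and to the H4 gene Hist1h4i. Capitals mark 4 motifs on either strand, which are the CCAAT box, the TATA box (written TATAAA), the octamer of H2B promoters (ATTTGCAT) and a hexamer of H4 promoters (GGTCCG). None of these motifs contains another. Letters were marked anywhere in a window, so a TATAAA far from the start, as in Hist1h4i, is not shown to be a TATA box.
Hist2h2aa1, chr3:96245247-96245496, plus strand: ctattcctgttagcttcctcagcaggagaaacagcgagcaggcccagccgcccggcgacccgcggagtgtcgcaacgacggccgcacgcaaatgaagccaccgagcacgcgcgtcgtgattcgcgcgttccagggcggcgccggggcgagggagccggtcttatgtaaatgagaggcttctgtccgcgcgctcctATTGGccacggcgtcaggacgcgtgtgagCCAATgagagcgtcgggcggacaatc
Hist2h2ac, chr3:96220881-96221130, minus strand: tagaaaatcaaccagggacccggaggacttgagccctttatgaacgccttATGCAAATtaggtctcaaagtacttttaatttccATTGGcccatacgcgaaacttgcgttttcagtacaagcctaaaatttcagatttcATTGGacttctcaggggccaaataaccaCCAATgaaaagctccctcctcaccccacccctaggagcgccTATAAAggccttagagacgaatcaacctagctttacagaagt
Hist1h2ac, chr13:23683960-23684209, minus strand: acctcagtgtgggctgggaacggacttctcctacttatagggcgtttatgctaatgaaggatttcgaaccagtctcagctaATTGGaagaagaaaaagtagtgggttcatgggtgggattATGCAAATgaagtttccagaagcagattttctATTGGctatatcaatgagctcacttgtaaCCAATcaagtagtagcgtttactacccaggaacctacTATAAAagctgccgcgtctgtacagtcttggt
Hist1h4i, chr13:22041363-22041612, minus strand: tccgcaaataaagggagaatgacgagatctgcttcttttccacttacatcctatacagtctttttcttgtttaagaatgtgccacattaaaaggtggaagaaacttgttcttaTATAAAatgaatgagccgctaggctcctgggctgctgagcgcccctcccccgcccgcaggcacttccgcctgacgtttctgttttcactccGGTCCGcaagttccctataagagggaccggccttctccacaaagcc
In the full windows of 300 bases, CCAAT was present in 53 of the 62 members (85.5%), against 37.4% of 32817 promoters. All 6 H1, 18 H2A, 16 H2B and 10 H3 windows held it, and 3 of 12 H4 windows did. GGTCCG was present in 11 of the 12 H4 windows, against 8.26% of all promoters, and in 1 H2B and 1 H3 window. TATAAA was present in 35 members (56.5%), against 13.6% of all promoters. In Hist2h2aa1 it lies just beyond the 250 bases shown. The octamer was present in 13 members, 7 of them H2A and 6 H2B genes, against 1.74% of all promoters. Its 13 members had values of 13 to 411 with a median of 117, and the 21 H2A and H2B members without it had a median of 124, so the values overlapped. The windows of head-to-head genes overlap, so these members are not independent, and a match of letters is not evidence of a bound factor. Hist1h2bc, Hist2h2be, Hist1h3a, Hist1h3f, Hist2h4 and Hist3h2bb-ps had no window.

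The library as a whole gave values that summed to 27569507. Astrocyte and microglia markers were detected in full (6 of 6 each), with Gfap at 17222 and C1qa at 32619, whereas neuronal markers had a median of 16.5. All 6 proliferation markers were detected, with Mki67 at 6120. A value of at least 10, taken as detection, was reached by 67.2% of all rows. Of 6 germ cell markers, Sycp3 was at 103, Ddx4 was at 1 and the other 4 were listed at 0.

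The clustered histone genes were present at low values in VM-derived glia, with a few members far above the rest. With detection set at a value of at least 10, 57 of the 68 members were detected, against 67.2% of all rows. The 68 members had a median of 33.5, against 119 for all rows. The median of detected rows alone was 469, and 5 members lay above it. In a mixed culture measured in bulk, few cells with much of an RNA and many cells with little of it cannot be told apart. Per kilobase of coding sequence the median was 95.2, against 338 for detected coding genes, and 19 of 67 members lay above. The gap was smaller per kilobase of annotated exon, where detected rows had a median of 102.5 and the members, detected or not, 55.2. Their values summed to 18987, or 0.0689% of the table. The 5 highest members held 76.3% of this sum, and the other 63 members summed to 4497 with a median of 27.

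The highest values belonged to H2A and H2B genes. Hist2h2aa1 and Hist2h2aa2, a pair of H2A genes with identical coding sequences, both stood at 5096, which 94.3% of detected rows lay under. Hist1h2bc, an H2B gene, stood at 2362, and Hist2h2be, a variant H2B gene first known from olfactory neurons, stood at 1259. Hist1h1c, a somatic linker histone gene, stood at 677. Per kilobase of coding sequence these were 13070 for each Hist2h2aa gene, 6249 for Hist1h2bc, 3331 for Hist2h2be and 1064 for Hist1h1c, in the same order. Hist2h2ac lay close to the last, at 1062. Per kilobase of annotated exon, Hist2h2aa2 at 9652, Hist2h2aa1 at 8696 and Hist1h2bc at 2043 stayed highest. On that scale Hist2h2ac at 790.4 and Hist1h2ap at 531.1 lay above Hist2h2be at 480.5 and Hist1h1c at 434.

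**Figure D1:**
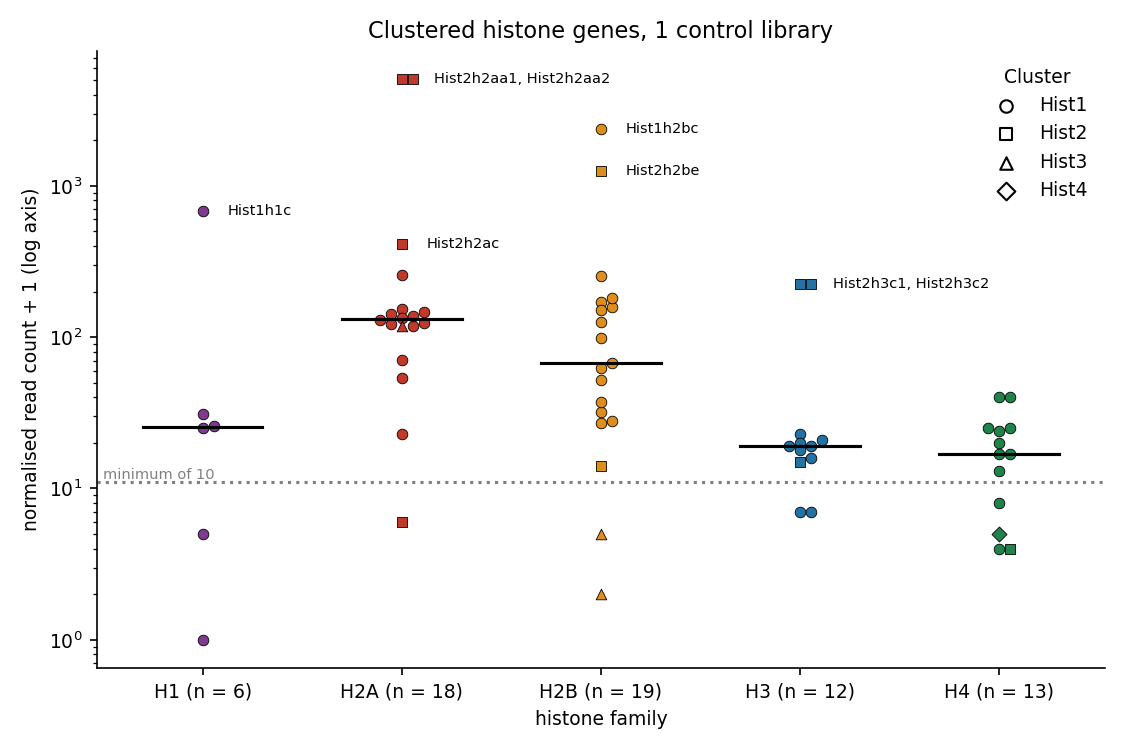
Normalised read count plus 1 (log axis) of each of the 68 clustered histone genes in 1 control library, by family on the horizontal axis; symbols mark the cluster, black bars the family medians and the dotted line the minimum of 10. H1, H2A, H2B and H3 each have 1 or 2 genes far above the others, from Hist2h2aa1 and Hist2h2aa2 at 5096 to Hist2h3c1 and Hist2h3c2 at 223, and H4 genes stay between 3 and 39.

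Across families, H2A genes held 64.9% of the member sum and H2B genes 26.7%. H1 genes held 4.0%, H3 genes 3.16% and H4 genes 1.21%. With the values shared by Hist2h2aa1 and Hist2h2aa2 and by Hist2h3c1 and Hist2h3c2 counted once, H2A held 52.9% and H2B 37.1%. Coding length was 309 bases in every H4 gene, 384 to 390 in H2A, 378 to 414 in H2B, 408 to 543 in H3 and 627 to 669 in H1. Per kilobase of coding sequence the shares were 65.5% for H2A, 27.7% for H2B, 2.47% for H1, 2.77% for H3 and 1.54% for H4. The core histones, which are built into the nucleosome in equal number, therefore had very unequal sums in this library. Whether this ratio follows the RNA of the cells or the way the library captured messages with different ends was not tested.

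H1 genes encode the linker histones that bind DNA between nucleosomes. Hist1h1c alone held 89.1% of the H1 sum. The other somatic genes Hist1h1e, Hist1h1a and Hist1h1d stood at 30, 25 and 24, and Hist1h1b stood at 4. Hist1h1t, the testis-specific linker histone gene, was listed at 0. The 6 H1 genes each encode a product of their own.

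H2A genes fell into an even group from Hist1 and a wide spread from Hist2. Of the 13 Hist1 genes, 9 lay between 118 and 152. The 4 others were Hist1h2ap at 256, Hist1h2an at 70, Hist1h2ak at 53 and the testis-specific Hist1h2aa at 22. The even group was picked by its values and holds genes from 3 of the blocks described below. In Hist2, Hist2h2aa1 and Hist2h2aa2 at 5096 stood beside Hist2h2ac at 411 and Hist2h2ab at 5. Hist3h2a stood at 117. The 18 H2A genes encode 9 products. One product is shared by 9 Hist1 genes and summed to 1255, and that of Hist2h2aa1 and Hist2h2aa2 summed to 10192 (82.7% of the H2A sum).

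H2B genes were spread without a comparable group. Hist1h2bc held 46.6% and Hist2h2be 24.8% of the H2B sum. Next were Hist1h2bg at 254, Hist1h2be at 181, Hist1h2br at 171, Hist1h2bq at 157, Hist1h2bh at 151 and Hist1h2bj at 124. A lower set held Hist1h2bk at 97, Hist1h2bl at 66, the testis-specific Hist1h2ba at 62 and Hist1h2bp at 51. Hist1h2bf, Hist1h2bn, Hist1h2bb and Hist1h2bm lay between 26 and 36. Outside Hist1, Hist2h2bb stood at 13, Hist3h2ba at 4 and Hist3h2bb-ps, which the annotation calls a processed pseudogene, at 1. Hist1h2bc, Hist1h2bg and Hist1h2be encode the same product and summed to 2797 (55.1% of the H2B sum), yet they ranged from 181 to 2362. Genes with 1 protein sequence thus had values more than 10-fold apart.

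H3 genes were low with 2 exceptions. The 9 Hist1 genes lay between 6 and 22. Hist2h3c1 and Hist2h3c2 both stood at 223 and held 74.2% of the H3 sum, and Hist2h3b stood at 14. The H3 genes encode 2 forms of the protein that differ at 1 residue, number 96 counted after the start residue. The form of Hist1h3a, Hist1h3g, Hist1h3h and Hist1h3i summed to 63 (10.5% of the H3 sum), and that of the other 8 genes summed to 538 (89.5%). Within Hist1 the 4 genes of the first form had a median of 17.5 and the 5 genes of the second a median of 18. The annotated coding sequence of Hist2h3c1 is longer than the others at 543 bases and ends in the same residues.

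H4 genes had the lowest sum of the core histone families, at 229, with a median of 16 against 18 for H3. Per kilobase of coding sequence the H4 median was 51.8 and the H3 median 44.1, so H4 genes were not the lower by that scale. All 13 encode 1 product, from 12 different coding sequences. Hist1h4h and Hist1h4i were highest, both at 39. Hist1h4b and Hist1h4n stood at 24, Hist1h4a at 23, Hist1h4j at 19, Hist1h4c and Hist1h4k at 16 and Hist1h4m at 12. Hist1h4f at 7, Hist4h4 at 4, and Hist1h4d and Hist2h4 at 3 were under the minimum. The H4 range was thus 13-fold, the narrowest of the 5 families. With the other members under 10 (Hist1h3f and Hist1h3g at 6, Hist2h2ab at 5, Hist1h1b and Hist3h2ba at 4, Hist3h2bb-ps at 1 and Hist1h1t at 0), 11 members were not detected.

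Along the chromosomes, the Hist1 cluster on chromosome 13 held 54 genes and 34.3% of the member sum. The Hist2 cluster (chr3:96219865-96270132, GRCm38) held 10 genes and 65.0%. With the values shared by the Hist2h2aa copies and by the Hist2h3c copies counted once, Hist2 held 51.4% and Hist1 47.7%. Hist3 on chromosome 11 held 0.643% and Hist4h4 on chromosome 6 held 0.0211%. Gaps of over 100 kb divide Hist1 into 4 blocks. The first (chr13:21715763-21837530) held 18 genes with a median of 41, the second (chr13:22035164-22043676) 5 genes with a median of 118, and the third (chr13:23531050-23764406) 29 genes with a median of 25. The fourth (chr13:23933773-23934851) holds only the testis-specific genes Hist1h2ba and Hist1h2aa. High and low genes alternated within the blocks: Hist1h2bc at 2362 lies between Hist1h2ac at 121 and Hist1h1t at 0, and in Hist2 the pair at 5096 lies between the H3 genes at 223.

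**Figure D2:**
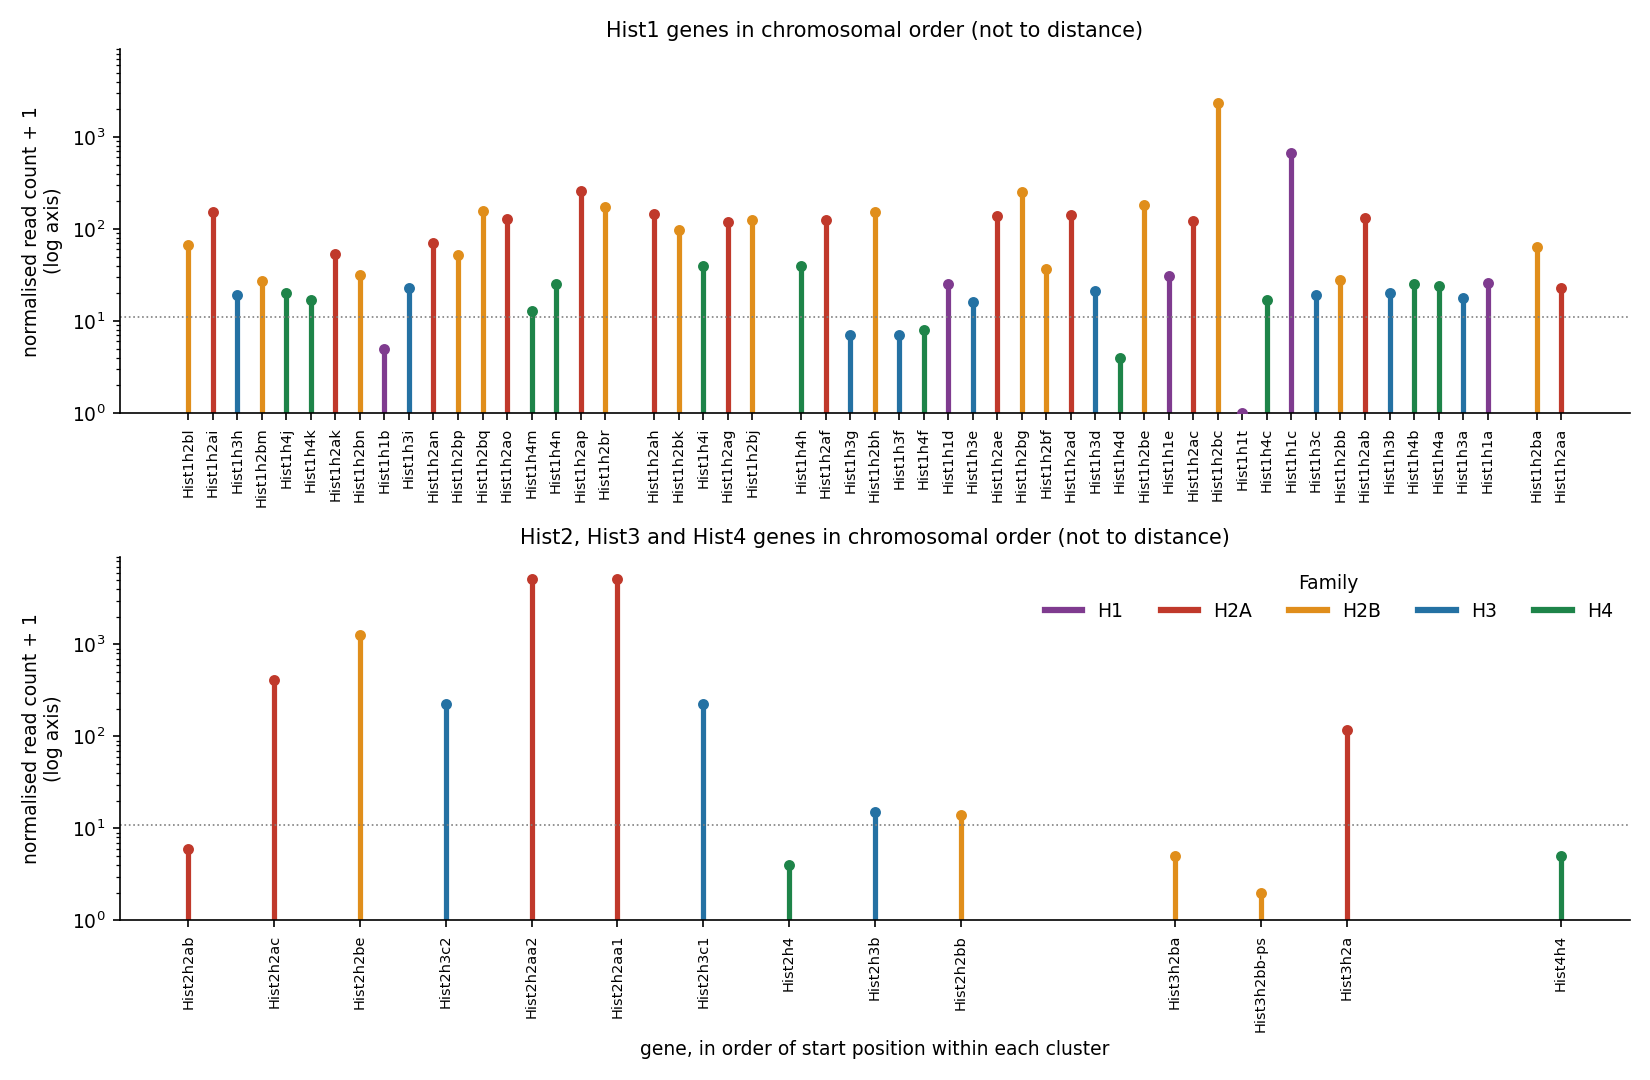
Normalised read count plus 1 (log axis) of the members in order along each cluster, coloured by family; gaps in the upper panel divide the 4 blocks of Hist1, and the dotted line is the minimum of 10. Neighbouring genes differ by family, with H2A and H2B genes above most H3 and H4 genes next to them, and the highest values are single genes or pairs, such as Hist1h2bc at 2362 and Hist2h2aa1 and Hist2h2aa2 at 5096.

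H2A and H2B genes that face away from each other formed 13 divergent pairs, with 173 to 306 bases between the annotated starts (median 251). The H2A gene had the higher value in 7 pairs and the H2B gene in 6. In the interval shown above, Hist1h2bc stood at 2362 and Hist1h2ac at 121, a difference of 4.28 on the log2 scale. In the other interval shown, Hist2h2be stood at 1259 and Hist2h2ac at 411. Opposite to these, Hist1h2ad stood at 142 and Hist1h2bf at 36, and Hist3h2a at 117 stood opposite the pseudogene Hist3h2bb-ps at 1. The pairs Hist1h2ag with Hist1h2bj (118 and 124) and Hist1h2ao with Hist1h2bq (128 and 157) had close values. On deposited values, genes on either side of 1 interval thus had near-equal values in some pairs and values over 10-fold apart in others. Per kilobase of annotated exon some pairs changed: Hist1h2ao stood at 266.7 and Hist1h2bq at 77.92, and Hist2h2ac at 790.4 lay above Hist2h2be at 480.5. Others kept their pattern, with Hist1h2ag at 243.3 and Hist1h2bj at 267.8, and Hist1h2ac at 48.75 and Hist1h2bc at 2043.

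**Figure D3:**
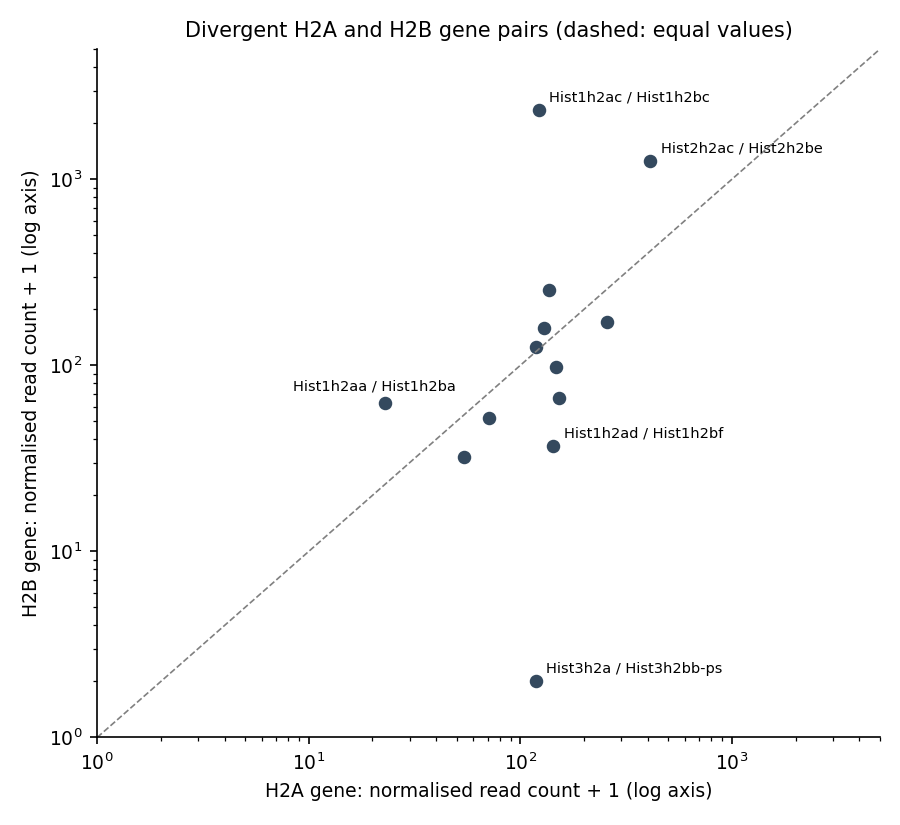
Normalised read count plus 1 of the H2A gene (horizontal) and the H2B gene (vertical) of each of 13 divergent pairs, both on log axes, with equality dashed. Pairs lie on both sides of the line, with Hist1h2bc at 2362 over Hist1h2ac at 121 farthest above it and Hist3h2bb-ps at 1 under Hist3h2a at 117 farthest below.

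Across these 13 gene pairs of 1 library, Pearson's r was 0.38 and Spearman's rho 0.53 on the log2(value + 1) scale. Per kilobase of annotated exon they were 0.16 and 0.082. Pairs share near-identical sequence, so the points are not independent, and the correlation is given as a description.

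The annotated ends of the members bear on how a message could enter the library, since the kit is named as an mRNA kit. In 23 members the annotated exon ends within 100 bases after the stem-loop, and in 23 it runs on for more. These ends are those of GENCODE, while the study's methods name RefSeq exons for the counting. The first group had values of 6 to 5096 with a median of 39, and the second values of 0 to 677 with a median of 24. The 22 members without a match had a median of 42. Values were thus not confined to genes annotated beyond the stem-loop: Hist2h2aa1 and Hist2h2aa2 end 35 bases after it. However, Hist2h2aa1 overlaps the annotated gene Gm20634 on the same strand, and 100% of the 50-base exon windows of Hist2h2aa2 are found in Gm20634. Their values therefore cannot be assigned to messages that end near the stem-loop. Among the other leading genes, Hist1h1c runs on for 840 bases, and Hist1h2bc and Hist2h2be had no match in their annotated exons.

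A poly(A) signal (AATAAA or ATTAAA in the last 50 bases of an annotated transcript) was found in 17 members, among them Hist1h1c and Hist2h2be, and was not found in Hist1h2bc or the Hist2h2aa genes. Members with the signal had a median of 51 and those without it a median of 27, but per kilobase of annotated exon the medians were 54.5 and 55.8. Exons were spliced in the annotation of 5 members, all H2B genes (Hist1h2bc, Hist1h2be, Hist1h2bp, Hist1h2bq and Hist1h2br), with values of 51 to 2362. The part of tails in these values was not tested, since the table gives 1 value per gene and no read positions.

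Other RNAs listed as without a usual poly(A) tail were also in the table. Whether the forms counted here had a tail was not tested. Of 9 such RNAs with a row, 5 were detected, against 67.2% of all rows. Rn45s, the ribosomal RNA precursor, stood at 655499, and the nuclear RNAs Malat1 and Neat1 stood at 24073 and 5265. Terc, the telomerase RNA, stood at 4, and Rprl1 and Rprl2 were listed at 0.

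Near-identical copies limit what the single values mean, because the treatment of reads that map to several places is not stated. Each member's annotated exons were cut into windows of 50 bases, and a window was counted as its own where no other annotated place held it on either strand. In 17 members, with 14.0% of the member sum, 80% or more of the windows were their own. These were all 6 H1 genes, 3 H2A, 4 H2B and 4 H4 genes, and none of the H3 genes. Of the leading genes, Hist2h2be had 100% own windows, Hist1h1c 91.5% and Hist1h2bc 69.4%. Within the coding sequence alone these were 100%, 78.0% and 2.43%, so nearly all of the coding sequence of Hist1h2bc is shared. Hist2h2aa1 had 3.72% and Hist2h2aa2 had 0%. Reads of Hist2h2aa1 and Hist2h2aa2 thus cannot be told apart over nearly all of their length, whereas Hist2h2be shares none of its windows.

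**Figure D4:**
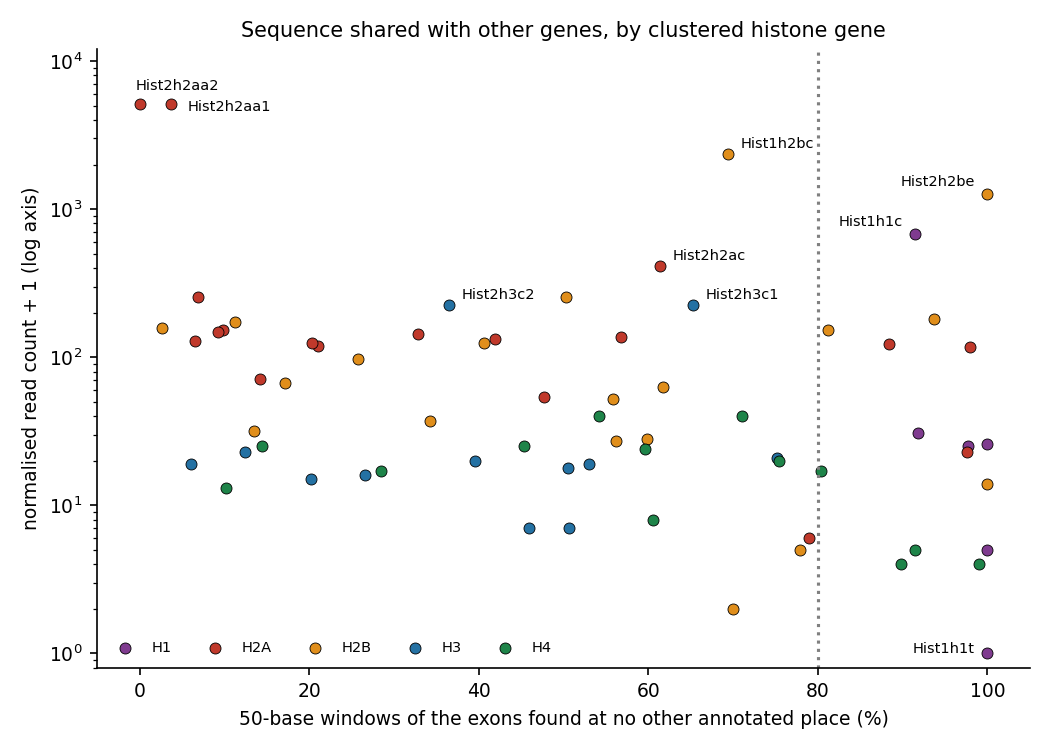
Share of a member's 50-base windows found at no other annotated place (horizontal, percent) against its normalised read count plus 1 (vertical, log axis), coloured by family, with the division at 80% dotted. Hist2h2be and Hist1h1c lie at the right with 1259 and 677, Hist2h2aa1 and Hist2h2aa2 at the far left with 5096, and no H3 gene lies to the right of the division.

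Coding sequences within a family were close, with a median identity of 96.7% between H2A genes of equal length, 95.6% for H2B, 97.5% for H3 and 93.8% for H4. Among the H2A genes of the even group, own windows ran from 6.50% in Hist1h2ao to 88.4% in Hist1h2ac, whose annotated exon is long at 2482 bases. Within the coding sequence alone they ran from 0% in Hist1h2ao to 28.1% in Hist1h2ab, with 18.2% in Hist1h2ac, so these genes share most of their coding sequence. Coding lengths of H2A genes are 384 to 390 bases, so values per kilobase of coding sequence (303 to 390) only rescale those deposited. Per kilobase of annotated exon the values ran from 48.8 in Hist1h2ac to 387 in Hist1h2ai. The group was thus not even by that scale. Own windows were 65.3% for Hist2h3c1 and 36.5% for Hist2h3c2. Exons of 24 members also overlap another annotated gene, mostly small gene models on the opposite strand; Hist1h2be and Hist1h1e overlap each other on the same strand, and Hist2h2aa1 and Hist2h3c1 overlap Gm20634. The strand setting of the counting is not stated, so reads of such genes cannot be told apart.

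Replication-independent variants stood far above the clustered genes of the same family for H3. H3f3a and H3f3b, which encode the H3 laid down outside S phase, stood at 15014 and 12220, and Cenpa, the H3 of centromeres, at 1021. Together they summed to 28255, against 601 for the 12 clustered H3 genes. The ratio was 47.0 on deposited values, 51.8 per kilobase of coding sequence and 14.1 per kilobase of annotated exon. For H2A, 6 variants summed to 11682, with H2afy at 3626, H2afz at 3562 and H2afj at 2416 as the highest and H2afy2 at 354 as the lowest. This was 0.948 of the 12324 of the clustered H2A genes, 0.74 of it per kilobase of coding sequence and 0.229 per kilobase of annotated exon. With the value shared by Hist2h2aa1 and Hist2h2aa2 counted once the ratio was 1.62, so which of the H2A groups held more depends on how copies and lengths are treated. The linker variants H1f0 at 1147 and H1fx at 391 summed to 2.02 times the clustered H1 genes.

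Genes that regulate, process and carry histones were detected throughout. The 20 genes of histone transcription and 3′ end processing had a median of 1031.5. Slbp stood at 1123 and Npat, the coactivator of clustered histone genes, at 272. The Sm proteins Snrpf at 6392 and Snrpb at 4086, which the U7 particle shares with the spliceosome, and Srrt (Ars2) at 3589 were highest, and Zfp473 at 24 was lowest. The 18 histone chaperones had a median of 2186.5, with Npm1 at 20383, Nap1l1 at 12256 and Ssrp1 at 6920 as the highest and Asf1b at 236 as the lowest. The 20 S phase genes had a median of 1115.5, with the replication clamp gene Pcna at 4484, the helicase genes Mcm6 at 3399 and Mcm3 at 2839 highest, and Cdc6 at 94 lowest. Each of these lists had all its members at 10 or more, against 67.2% of all rows. Per kilobase of coding sequence the medians were 722 for processing, 977 for chaperones, 790 for S phase and 95.2 for the clustered genes. The gaps were smaller per kilobase of annotated exon, with 182 for processing, 376 for chaperones, 227 for S phase and 55.2 for the clustered genes.

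**Figure D5:**
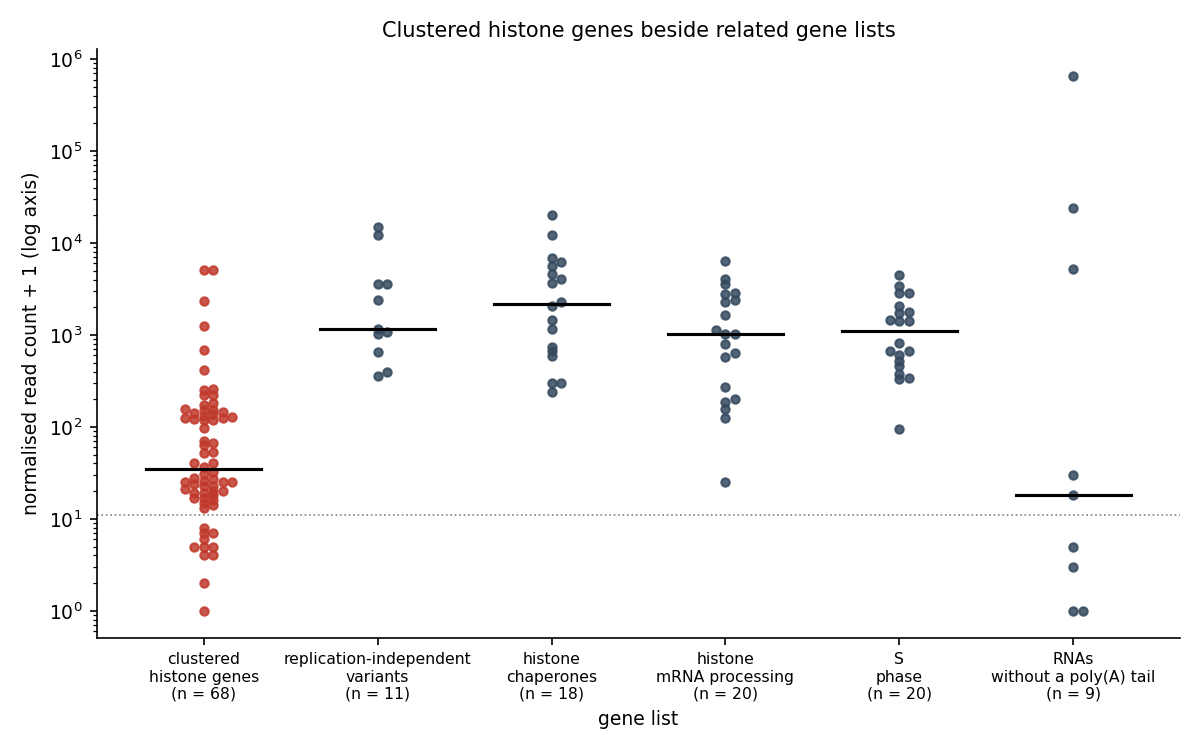
Normalised read count plus 1 (log axis) of the 68 clustered histone genes (red) and of 5 related gene lists in the same library, with medians as black bars and the minimum of 10 dotted. The clustered genes have a median of 33.5, the variants 1147, the chaperones 2186.5, the processing genes 1031.5 and the S phase genes 1115.5. The RNAs listed as without a usual poly(A) tail run from 0 to 655499.

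The 3 testis-specific members were compared with germ cell markers. Hist1h1t was listed at 0, Hist1h2aa stood at 22 and Hist1h2ba at 62. Own windows were 100% for Hist1h1t, 97.7% for Hist1h2aa and 61.8% for Hist1h2ba. Hist1h2aa was thus detected beside Dazl, Sycp1, Prm1 and Tnp1 at 0 and Sycp3 at 103. Its exon overlaps an annotated gene on the opposite strand, which was not counted as shared sequence. The strand setting of the counting is not stated, so its reads cannot be told apart from those of that gene.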

How the data were processed

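One RNA-seq library of control VM-derived mixed glia was analysed. Total RNA was extracted with Trizol and prepared with a SMARTer mRNA kit. Per the study's methods, reads were mapped to GRCm38/mm10 with STAR and counted on RefSeq exons with HTSeq-count; the submitters' processing notes name TopHat, edgeR and mm10. Versions, normalisation, strand and multi-mapped reads are not given in the sources used here. The deposited values are whole numbers, called normalised read counts by the authors, and were treated as a score of the size of read counts, so depth is unknown and no interval is given. Exons, coding sequences and transcripts came from GENCODE on GRCm38, matched by symbol for all 68 members. GENCODE and RefSeq exons can differ, so the annotated ends, exon lengths and windows may not describe the region that was counted. Promoters came from RefSeq, of which 62 were matched. Windows were compared with annotated transcripts, and products were translated from coding sequences, in place of a genome and a protein table. The search functions were tested on simulated data. Every member could be named. Of each related list, the 3 highest genes, the lowest and those at 0 could be named. Other genes (Gm20634, Npat, Slbp and Terc) were chosen after their values were seen. The members and lists were chosen with earlier results of these data known. Scripts ran in Python 3.11.15 with pandas 2.3.3, numpy 2.4.6 and scipy 1.17.1, and figures were drawn with matplotlib 3.10.9.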

Additional observations from a re-analysis of the deposited data

How the results depend on the processing

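Of 72 recomputed values, 49 moved by less than 1.5 times and 23 by more. With a minimum of 100, 25 members were detected. Restricted to members with 80% own windows, the share of the table sum was 0.00961%, and the family shares were 28.7% for H1, 9.81% for H2A, 60.5% for H2B and 0% for H3, since this leaves 17 genes. Per kilobase of annotated exon, the shares became 1.73% for H1, 15.5% for H2B, 0.223% for Hist3 and 0.00492% for Hist4, the Hist1h3a form held 23.1% of the H3 sum, the median of genes running on past the stem-loop was 0.314 of that of genes ending near it (0.615 on deposited values), over the pairs r was 0.162 and rho 0.0824, and variants summed to 0.229 of the clustered H2A and 14.1 times the clustered H3 genes. Per kilobase of coding sequence H1 held 2.47%. On deposited values without the highest gene of each family, H1 held 0.784%. With equal-valued copies counted once, a choice made after seeing the data, the Hist1h3a form held 16.7%, and variants summed to 1.62 times the clustered H2A and 74.7 times the clustered H3 genes. With windows of 100 bases 26 members, and with a division at 50% 38 members, had mostly their own sequence. No paired analysis was possible because 1 library was analysed. Products from a protein table and windows against a genome were not run.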

Other observations

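Some near-identical copies had values in whole ratios. Hist1h2ao and Hist1h2ap, with identical coding sequences, stood at 128 and 256, and Hist1h4m and Hist1h4n, also identical, at 12 and 24. These 4 genes lie on both arms of 1 inverted repeat on chromosome 13, and in each case the gene on the minus strand had 2 times the value of its copy. Hist1h2bq and Hist1h2br on the same arms, likewise identical in coding sequence, stood at 157 and 171. Hist2h2aa1 and Hist2h2aa2 on chromosome 3 had equal values, as did Hist2h3c1 and Hist2h3c2, which flank them. Upstream of these pairs the sequence was also shared, with the longest common run in windows of 250 bases being 169 bases for the Hist2h2aa genes, 231 for the Hist2h3c genes, 150 for Hist1h2ao and Hist1h2ap, 249 for Hist1h4m and Hist1h4n and all 250 for Hist1h2bq and Hist1h2br, whose values are in no whole ratio. Equal values also occurred between less similar genes, as in Hist1h4h and Hist1h4i at 39, where 16.5% of the windows of Hist1h4i were found in Hist1h4h. The origin of the ratios was not tested.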
